A study of Solanum phureja with 20 samples.

Results

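VPE2 encodes a vacuolar processing enzyme of potato, and its transcript was followed over a ploidy series in which 1 genome is present in 1, 2 or 4 copies. Vacuolar processing enzymes, also called legumains, are cysteine endopeptidases of the plant vacuole that cut proteins after asparagine and aspartate. They are made as inactive precursors, mature in the acidic vacuole and then trim other vacuolar proteins into their final forms. In Arabidopsis and tobacco the vegetative forms are known for caspase-like activity in cell death during infection and in ageing tissue. The gene was identified as every spot whose only symbol in the probe annotation is VPE2, which gave 4 of 32448 spots. They form 2 of 15360 cDNA clones, each printed as 2 spots, and VPE2 is 1 of 430 genes with a single symbol. Of these clones 1 had a value on all 20 arrays, and the values below are from it unless stated. VPE2 was chosen for its leaf levels, in which both diploids and the tetraploid stood above the monoploid, so those leaf differences are described and carry no test. The 2xR5 with 2xR3 comparison in leaf and all root comparisons rest on another contrast or other RNA and were tested.

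The lines form the potato series O37, made from a Solanum phureja monoploid with 12 chromosomes by doubling its chromosomes. They are the monoploid 1x, the diploids 2xR3 and 2xR5 and the tetraploid 4x, so that 1x and 4x are 1 line each. Leaf RNA came from growing leaflets at 20 days after planting, 6 plants a line, and root RNA from growing root tips at 7 days, amplified before use. All plants were kept on days of 15 h at 23.5 °C and nights of 9 h at 15.5 °C, and those grown for leaf also received a daily nutrient solution. Pooling of plants is not described in the labels. Each of the 20 arrays set 1 line in Cy3 against another in Cy5, and 12403 to 18629 spots had a value on an array. The 12 leaf arrays hold 3 RNA replicates of each line and the 8 root arrays hold 2, and these small numbers limit the precision. No array holds both tissues, so a leaf level and a root level cannot be compared. With ratios alone the labelled tissue cannot be checked against markers either.

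Values are log2 ratios of Cy5 over Cy3. That direction is likely, being the convention of the software named for the processing, but it is not stated; the reverse would turn every sign given here. In bulk tissue, fewer cells that hold the transcript and less of it in each cell cannot be told apart. With array medians at most 0.014 from 0, a level here is relative to the other clones on the array. Amounts per cell or per genome copy were not measured.

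The single arrays show how directly each leaf difference was seen. In leaf replicate 1, the clone's ratio was 0.70 for 2xR3 over 1x and 0.53 for 4x over 2xR3. The other arrays of that loop gave 0.27 for 2xR5 over 4x and -0.46 for 1x over 2xR5. The monoploid was thus the lower partner on both arrays that held it. In leaf replicate 2, the ratio was -0.18 for 1x over 2xR3 and 1.10 for 2xR5 over 1x. The tetraploid was on the higher side of the other arrays of that loop, with -0.37 for 2xR3 over 4x and 0.77 for 4x over 2xR5. Leaf replicate 3 was built of dye-swapped pairs, and 4x over 1x gave 0.71 in 1 orientation while 1x over 4x gave -0.74 in the other. The diploids of that replicate lay closer, at 0.13 for 2xR5 over 2xR3 and -0.12 for the reverse. Across the leaf arrays 1x was therefore the lower partner on each of the 6 arrays that carried it.

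In root tips the ratios of VPE2 differed in size between the loops. Root replicate 4 gave 0.11 for 2xR3 over 1x and -0.53 for 1x over 2xR5. The remaining arrays of that loop gave 0.32 for 4x over 2xR3 and 0.03 for 2xR5 over 4x, so no ratio exceeded 0.53 in size. Root replicate 5 gave -1.87 for 1x over 2xR3 and 1.87 for 2xR5 over 1x. Its arrays without 1x gave 0.34 for 2xR3 over 4x and -0.57 for 4x over 2xR5. The monoploid was again the lower partner on each of its 4 arrays, and the large ratios were confined to the 2 arrays of replicate 5 that held it.

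The duplicate spots had the same sign on 20 of 20 arrays. They differed by 0.109 at the median and by 0.384 at most, on the array of root replicate 5 with 4x and 2xR5. Over the 20 arrays the 2 spots had a Pearson r of 0.977, given as a description since both spots of an array share the same labelled RNA. On the arrays of root replicate 5 with 1x the spots read -2.00 and -1.74 against 2xR3 and 1.84 and 1.90 against 2xR5, so the large ratio was present in both spots.

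**Figure D1:**
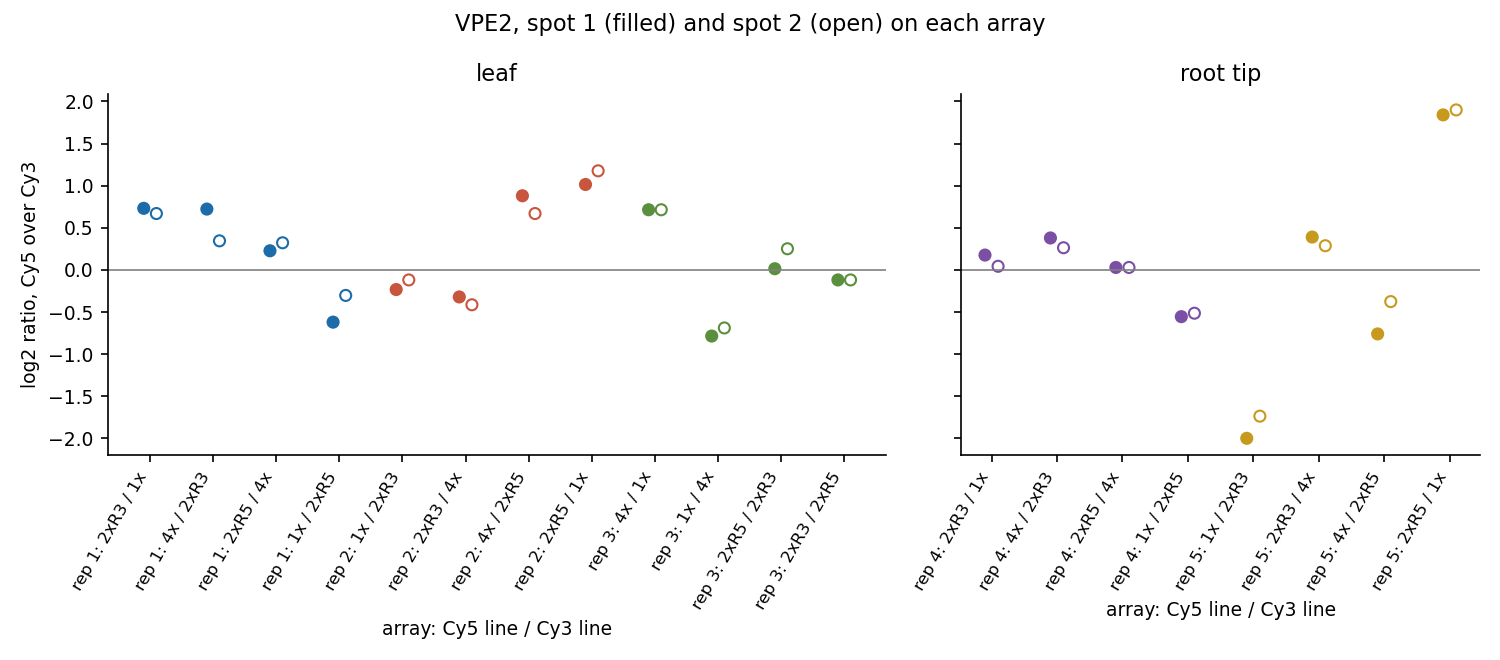
VPE2 on each array. The y axis is the log2 ratio of Cy5 over Cy3, each array is named by its Cy5 and Cy3 line, filled points are spot 1, open points spot 2, and colours mark the replicates. Both spots have the same sign on all 20 arrays, and the ratios near 1.9 in size are those of root replicate 5 with 1x.

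The other VPE2 clone could not serve as a second measurement. It had 5 values, all in leaf and each from a single spot. They were -0.47 for 4x over 2xR3 and 0.26 for 2xR5 over 4x in replicate 1. Replicate 2 gave -0.06 for 2xR3 over 4x, -0.03 for 4x over 2xR5 and -0.17 for 2xR5 over 1x. Of these 5 values, 2 had the sign of the well-measured clone on the same array. The single array with 1x stood at -0.17 where the well-measured clone stood at 1.10. The leaf pattern of VPE2 therefore rests on 1 clone, and its few values from the other clone did not show it.

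Within a closed loop each line carried each dye once, so the mean of the 4 ratios is an offset of Cy5 over Cy3 for that clone and drops out of the line levels. For VPE2 this offset was 0.26 in leaf replicate 1 and 0.33 in leaf replicate 2, larger in size than in 87.9% and 95.3% of the 6001 clones measured on every leaf array. It was -0.01 and 0.01 in the dye-swapped pairs of leaf replicate 3, and -0.02 and -0.06 in root replicates 4 and 5. The offset shows in the 2 routes from 1x to 4x within a leaf loop. In leaf replicate 1 the route through 2xR3 gave 1.23 and the route through 2xR5 gave 0.19, while in replicate 2 they gave 0.54 and 1.87. Every route was above 0, and their means were 0.71 and 1.21. In root replicate 4 the routes gave 0.43 and 0.51, and in replicate 5 they gave 1.53 and 1.30. The levels below are therefore from whole loops or dye-swapped pairs, not from single arrays.

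In leaf, the solved levels placed 1x lowest and the diploids between 1x and 4x or level with 4x. Relative to 1x of the same loop, replicate 1 stood at 0.44 in 2xR3, 0.72 in 2xR5 and 0.71 in 4x. Replicate 2 stood at 0.51 in 2xR3, 0.76 in 2xR5 and 1.21 in 4x, so the diploid levels of both loops nearly coincided and the 4x levels did not. Replicate 3 stood at 0.73 in 4x, and its diploids were not set against 1x.

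Among neighbours in that order, 2xR3 exceeded 1x by 0.47 ± 0.05 (log2, SD, n = 2). 2xR5 exceeded 2xR3 by 0.22 ± 0.08 (log2, SD, n = 3), and that step is tested below. 4x exceeded 2xR5 by 0.22 ± 0.32 (log2, SD, n = 2), with -0.01 and 0.44 in the single loops. The upper neighbours 2xR5 and 4x therefore differed by less than the spread between replicates.

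By ploidy level, the tetraploid stood above the monoploid by 0.88 ± 0.28 (log2, SD, n = 3), a 1.84-fold difference, with 0.71, 1.21 and 0.73 in replicates 1, 2 and 3. That size exceeded those of 99.1% of the 6001 clones, for which the median size was 0.18. Since VPE2 was chosen for its leaf rise, this rank is a description and no support for the rise. The mean of the diploids stood above 1x by 0.58 and 0.64 in the single loops, and by 0.57 in the fit, which also draws on the replicate 3 pair of 1x and 4x. The 4x level stood above the mean of the diploids by 0.13 in replicate 1 and 0.57 in replicate 2. Against the mean of 1x and 4x the diploids stood at 0.23 and 0.03. The first doubling thus gave similar steps in both loops, and the second gave steps that differed by more than their mean of 0.35.

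**Figure D2:**
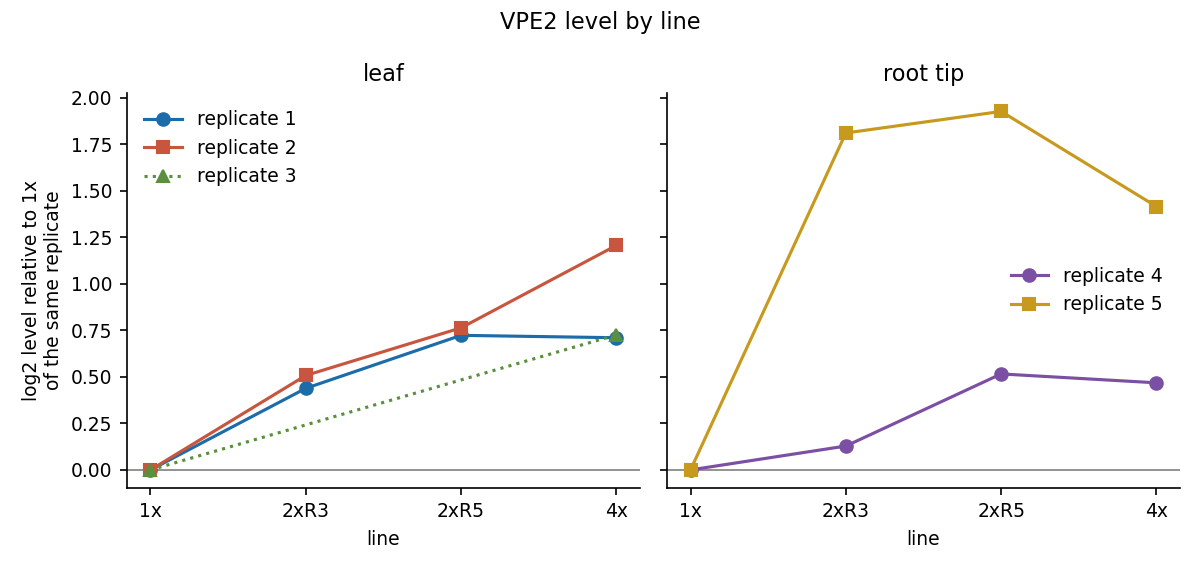
VPE2 level of each line relative to 1x of the same replicate, on a log2 scale, with 1 line per replicate. Leaf replicate 3 has no link between 1x and the diploids, so its dotted line joins 1x and 4x only. In leaf the diploid points of replicates 1 and 2 nearly coincide, while in root tip the points above 1x lie at 0.13 to 0.52 in replicate 4 and at 1.42 to 1.93 in replicate 5.

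Between the lines of equal ploidy in leaf, 2xR5 was above 2xR3 in 3 of 3 replicates, by 0.28, 0.26 and 0.13. The difference was 0.22 with an SE of 0.10 (n = 3) and did not pass (limma with Benjamini-Hochberg adjustment, adjusted p = 0.573), with a 95% interval of 0.0038 to 0.44. No clone passed in that comparison (0% of 6001; 518 had an unadjusted p under 0.05 in limma), so the diploids had no called leaf difference for VPE2 or any other clone in this fit.

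In root tips VPE2 was higher in the diploids than in the monoploid, but the size of this difference varied between the loops. Relative to 1x, replicate 4 stood at 0.13 in 2xR3, 0.52 in 2xR5 and 0.47 in 4x. Replicate 5 stood at 1.81 in 2xR3, 1.93 in 2xR5 and 1.42 in 4x. All 3 lines were above 1x in both loops, yet the lowest line of replicate 5 stood higher than the highest of replicate 4.

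On the log2 scale VPE2 rose by 1.10 in the diploids against 1x, with an SE of 0.32 over n = 2 loops (limma with Benjamini-Hochberg adjustment, adjusted p = 0.036). This is a 2.14-fold difference with a 95% interval of 0.31 to 1.88 in log2. The single loops gave 0.32 and 1.87, a mean of 1.10 ± 1.09 (SD, n = 2), and the SE of the fit takes part of its spread from all clones. The call was shared by 3735 of 8245 clones (45.3%), of which 1721 (20.9% of all) were higher in the diploids. These were 46.1% of the called clones. Once arrays were scaled 712 clones were called, and 63.5% of those were higher in the diploids. With the ratio reversed these would be the shares that were lower. Without replicate 5 the difference was 0.32 (limma, adjusted p = 0.121), and without replicate 4 it was 1.87 (limma, adjusted p = 3.33e-06), with leaf supplying the spread and the lone loop assumed to vary like leaf. Scaling of the arrays to equal spread gave 0.76 (limma, adjusted p = 0.128), with 0.20 and 1.31 in the loops, and the adjusted p over all alternatives ran from 3.33e-06 to 0.128. The call was thus lost in the absence of replicate 5 and after scaling, while each loop stayed above 0.

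For 4x against 1x the root difference was 0.94 with an SE of 0.37 and loops at 0.47 and 1.42. It did not pass (limma, adjusted p = 0.103), where 30.1% of clones did. Array scaling gave 0.52, with 0.42 and 0.62 in the loops, so that their gap of 0.95 became 0.20. The difference passed in the joint fit of both tissues (limma, adjusted p = 0.015), where 1699 of 5121 clones passed. That fit takes part of its spread from leaf, where the SD of this difference was 0.28, against 0.67 in root. Over the alternatives with both loops the adjusted p ran from 0.015 to 0.371 (limma). Without replicate 4 the difference was 1.42, and without replicate 5 it was 0.47. Against the diploids, 4x stood at -0.15 (limma, adjusted p = 0.967) with a 95% interval of -0.94 to 0.63, and the loops lay on either side of 0, at 0.15 and -0.45. After scaling this value was -0.23. The mean of the diploids against that of 1x and 4x stood at 0.62, with 0.09 and 1.16 in the loops. It did not pass (limma, adjusted p = 0.137), where 20.1% of clones did. This difference also passed in the joint fit (limma, adjusted p = 0.028), with leaf again supplying part of the spread, where 1214 of 5121 clones passed. Over the alternatives with both loops its adjusted p ran from 0.028 to 0.235 (limma). Without replicate 4 it was 1.16, and without replicate 5 it was 0.09.

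2xR5 was above 2xR3 in both root loops, by 0.39 and 0.12, as it was in leaf. The difference of 0.25 with an SE of 0.37 did not pass (limma, adjusted p = 0.998), and its 95% interval ran from -0.66 to 1.16. No clone passed in this comparison or in that of 4x with the diploids (0% of 8245 each; 301 and 582 had an unadjusted p under 0.05 in limma). In the order of root levels, 1x was lowest and 2xR5 highest in both loops, while 2xR3 and 4x changed places. 4x differed from 2xR3 by -0.03 ± 0.52 and from 2xR5 by -0.28 ± 0.33 (log2, SD, n = 2 each), less than or about the spread between loops.

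**Figure D3:**
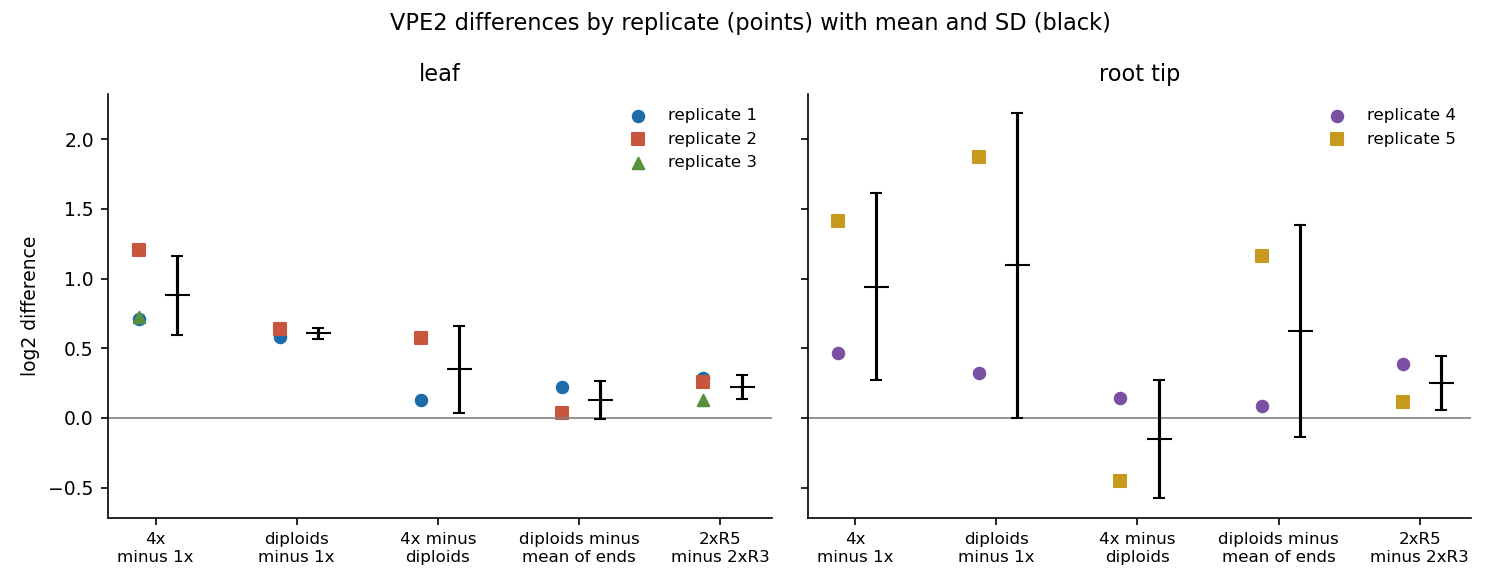
VPE2 differences between lines on the log2 scale, with a point for each replicate and, in black, their mean and SD. In leaf the differences against 1x lie between 0.58 and 1.21, while in root tip each difference against 1x or the mean of the ends is larger in replicate 5 than in replicate 4.

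The gap between the root loops was large among clones. For the diploids against 1x it was 1.55 for VPE2, against a median size of 0.12, and 14 of 8245 clones (0.170%), VPE2 included, had a gap at least as large. Over all clones this difference had an SD of 0.47 in both loops, and the loops correlated at r = 0.854 across clones, which are not independent replicates. For the diploids against 1x the spread over all clones was thus similar in both loops. After array scaling this gap was 1.12, and 17 clones, VPE2 included, had one at least as large. For 4x against 1x the gap of VPE2 was 0.95, and 118 clones (1.43%), VPE2 included, had one at least as large. Array scaling brought that gap to 0.20, a size that 39.3% of clones reached. The cause of the gaps was not tested. The part of the diploid gap in the root call of the diploids against 1x was measured only by leaving out each loop, as given above.

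**Figure D4:**
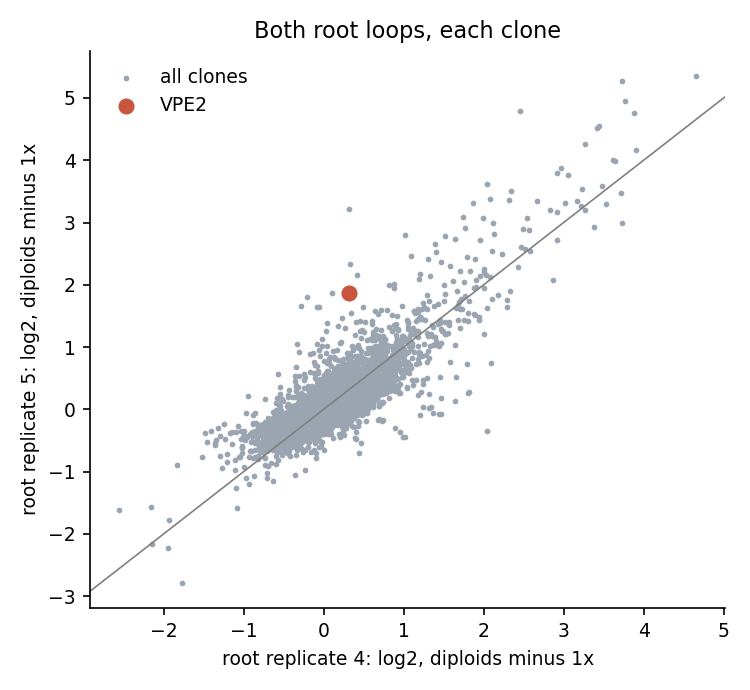
Diploids minus 1x on the log2 scale in root replicate 4 (x axis) and replicate 5 (y axis), with a grey point for each of 8245 clones, the line of equality, and VPE2 in red. VPE2 lies at 0.32 and 1.87, above the line and outside the main cloud.

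The leaf and root comparisons can be set side by side without a test, since VPE2 was chosen on leaf. 4x was above 1x in all 5 replicates of both tissues, by 0.47 to 1.42. Of the 5121 clones with every value in both tissues, 710 (13.9%) were above 0 in all 5 for 4x against 1x. Another 851 were below 0 in all 5. 2xR5 was above 2xR3 in all 5 replicates as well, by 0.12 to 0.39. For that step of 2xR5 over 2xR3, 152 of the 5121 clones (2.97%) were above 0 in all 5 and 157 were below. Its median r between replicates across clones was 0.01, against 0.18 for 4x against 1x. The shared sign in VPE2 is therefore a description only.

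Among clones with a single symbol, the 5 genes whose levels were most like those of VPE2 were taken by Pearson r over 20 RNA values (12 leaf and 8 root), each centred in its loop or pair. They were LOC102577923 (r = 0.897), SHKA (0.881), LOC102587698 (0.865), NAD(P)H:QR (0.845) and LOC102577612 (0.842), out of 457 named clones. SHKA is the first enzyme of the shikimate pathway to aromatic amino acids and NAD(P)H:QR is a quinone reductase. These correlations are descriptions, the values share arrays, and over all 5121 clones the median r was -0.04. The clones most like VPE2 carry no single symbol: 6 other clones had an r of at least 0.9, above every named gene. For NAD(P)H:QR r was 0.70 in leaf and 0.95 in root tips.

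The differences of the alike genes were smaller than those of VPE2 in leaf 4x against 1x and in root replicate 5, but not all were in root replicate 4. In leaf, 4x against 1x stood at 0.48 for LOC102577923, 0.24 for SHKA, 0.27 for LOC102587698, 0.24 for NAD(P)H:QR and 0.28 for LOC102577612. In root tips their diploids against 1x stood at 0.23, 0.61, 0.27, 0.42 and 0.07 in replicate 4. Replicate 5 gave 0.70, 1.11, 0.35, 0.83 and 0.33, so each was higher in replicate 5, as VPE2 was, but none by as much. The levels of replicate 5 were among those used to pick these genes, so this shared rise is no separate support. In replicate 4 SHKA and NAD(P)H:QR stood above the 0.32 of VPE2. Without root replicate 5, r over 16 values was 0.892 for LOC102577923, 0.683 for SHKA, 0.865 for LOC102587698, 0.726 for NAD(P)H:QR and 0.828 for LOC102577612. The likeness of SHKA and NAD(P)H:QR thus leaned on replicate 5 more than that of the LOC genes.

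**Figure D5:**
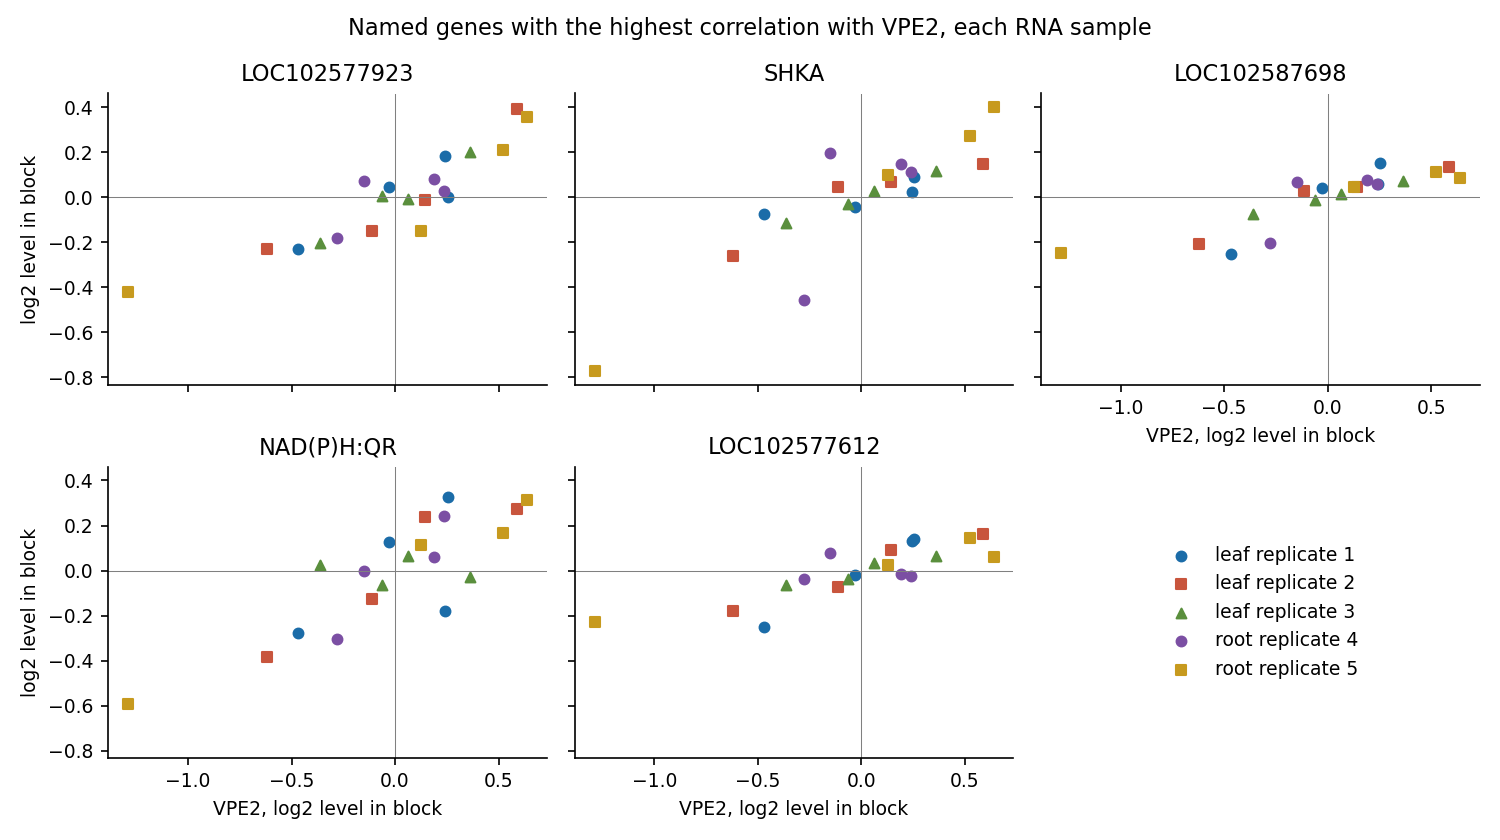
The 5 named genes most like VPE2, 1 panel each, with the log2 level in its loop or pair against that of VPE2 for 20 RNA samples. In each panel the leftmost point is 1x of root replicate 5, where VPE2 stood at -1.29.

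Other genes of protein breakdown could not be set beside VPE2, since the list of proteases and protease inhibitors matched 0 further symbols. Of the wound and defence list, PR1B had no clone with every value in either tissue. STWRKY8, a WRKY transcription factor, had 1 clone in leaf, where the diploids against 1x gave 0.52 (limma, adjusted p = 0.013) and 4x against 1x gave 0.09 and did not pass. In those leaf comparisons 16.6% and 39.8% of all clones passed. The same clone rose in the leaf diploids against the mean of 1x and 4x, at 0.48 (limma, adjusted p = 0.028), where 2.17% of clones passed. In root tips 4 of 4 clones rose in the diploids against 1x, 2 of STWRKY8 and 1 each of PPO and POTLX-3, with a median of 0.45 against -0.02 over all clones, of which 45.3% passed and 20.9% passed as higher. All 4 were also higher in 4x against 1x, but only the STWRKY8 clones passed, at 0.34 and 0.36 (limma, adjusted p = 0.044 and 0.049). PPO at 0.22 and POTLX-3 at 0.30 did not pass. There 30.1% of all clones passed in either direction, 49.3% of them higher. In the diploids against the mean of 1x and 4x all 4 were higher and 3 passed. POTLX-3 did not, at 0.18 (limma, adjusted p = 0.171). There 20.1% of all clones passed in either direction, 51.8% of them higher. After array scaling the root calls over all clones fell to 712 for the diploids against 1x. They fell to 185 for 4x against 1x and to 162 for the diploids against the mean of 1x and 4x. Calls of the wound and defence clones after scaling were not looked up. PSBR, a photosystem II subunit and the only green tissue marker matched, had 2 of 6 clones measured in each tissue, not the same pair. In leaf its median was -0.23 in 4x against 1x and 0.14 in the diploids against 1x, and in root tips -0.01 and -0.09, with 0 of 2 clones called each time. The root clones lay on either side of 0. They stood at 0.07 and -0.09 in 4x against 1x, and at 0.03 and -0.22 in the diploids against 1x. Over all clones 39.8% and 16.6% passed in these leaf comparisons, and 30.1% and 45.3% in those of root. In leaf 4x against the diploids both of its clones were lower, at -0.36 (limma, adjusted p = 0.065) and -0.38 (limma, adjusted p = 0.042). Only the latter passed, where 3.3% of all clones did. These lists were chosen with earlier results of these data known, so the calls of their members are descriptions and no separate support. The part of these lists in the VPE2 result was not tested.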

How the data were processed

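RNA of 4 potato lines was compared on 20 arrays with 2 channels. The deposited values are log2 ratios of the channels, which the submitters' processing notes link to limma; its version and the normalization steps are not stated there. Array medians were at most 0.014 from 0. Arrays hold no read depth, and no intensities were used.

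Spots were averaged into clones by print layout, which all 905 accessions with 2 annotated spots follow. Loops were solved by least squares and dye-swapped pairs averaged. Values of each RNA sample were modelled in limma 3.58.1 under R 4.3.3 (lmFit, eBayes; line plus replicate as a block, since ratios exist only within a replicate). Each tissue was fitted apart over clones with a value on every array (6001 leaf, 8245 root; 5 and 3 residual degrees of freedom), and Benjamini-Hochberg adjusted p under 0.05 was the threshold. The labels call the replicates biological but tie no number to plants; p-values therefore cover spread among RNA samples that may be technical. The fit of each tissue and the array-level fit were tested on simulated data. The joint fit, also used where a root loop was left out, was not.

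Named genes are VPE2, members of 3 symbol lists (proteases and inhibitors, green tissue, wound and defence) and the 5 single-symbol genes most correlated with VPE2. VPE2 and the lists were chosen with earlier results of these data known. The platform annotation that names spots can be old. Alternatives were array scaling, a 75% rule for missing values, single spots, an array-level fit, a joint fit and leaving out replicates.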

Additional observations from a re-analysis of the deposited data

How the results depend on the processing

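VPE2 kept its direction in each comparison and alternative run, except root 4x against the diploids, which was not called and turned to 0.15 without replicate 5. Its root call for the diploids against 1x held with the 75% rule, in the array-level fit without a replicate block (1.10; limma, adjusted p = 0.025) and in the joint fit. Each spot alone kept that call too. Scaling of arrays gave 0.76 (limma, adjusted p = 0.128), and leaving out a root loop gave 0.32 to 1.87, with the call lost without replicate 5. Leaf diploids against 1x stood at 0.52 after scaling and at 0.515 to 0.61 with a replicate left out. In the joint fit root 4x against 1x (0.94) and diploids against the mean of 1x and 4x (0.62) passed. That fit takes part of its spread from leaf. With a loop left out these differences ranged over 0.468 to 1.42 and 0.088 to 1.16. The cause of these changes was not tested, beyond fewer samples where a replicate was left out.

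Counts of called clones over all genes moved more, and none is a result about VPE2. The array-level fit without a replicate block differs from the reported fit both in the block and in taking arrays in place of solved RNA levels, and the parts of these changes were not separated. It called 494 clones for leaf 4x against the diploids (198 as reported) and 518 for leaf diploids against the ends, that is the mean of 1x and 4x (130 as reported). It called 5 for root 4x against the diploids (0 as reported) and 3655 for root diploids against the ends (1655 as reported). The same fit with the 75% rule gave 1517 for leaf diploids against 1x (994), 492 and 487 for those leaf comparisons, and 6 and 3692 for those root comparisons. Scaling gave 110 and 52 for the leaf pair, and in root 185 for 4x against 1x (2481), 712 for diploids against 1x (3735), 13 for 4x against the diploids and 162 for diploids against the ends. Spot 1 alone gave 638 for leaf diploids against 1x, 73 for leaf diploids against the ends and 1 for root 4x against the diploids. Spot 2 alone gave 607 and 73 for these leaf comparisons, and 126 for leaf 4x against the diploids. The joint fit, over 5121 clones, gave in root 2408 for diploids against 1x, 17 for 4x against the diploids and 11 for 2xR5 against 2xR3 (0).

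With a leaf replicate left out, calls ranged over 194 to 2159 for 4x against 1x (2386), 11 to 988 for diploids against 1x, 0 to 520 for 4x against the diploids, 1 to 163 for diploids against the ends and 0 to 4 for 2xR5 against 2xR3. With a root loop left out, again over 5121 clones, the ranges in that order were 646 to 716, 970 to 1424, 15 to 50, 325 to 524 and 1 to 2. Of the alternatives run, 41 counts stayed within 1.5 times the reported count and 44 did not. Leaf RNA replicates and root loops are few, and the number of arrays limits the precision of every value.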

Other observations

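Few clones shared the gap of VPE2 between the root loops for the diploids against 1x, and a catalase gene was among them. Of the 14 clones whose diploid difference from 1x changed by at least as much as that of VPE2, 12 were higher in replicate 5 and 5 had a single symbol. CAT1, a catalase that breaks down hydrogen peroxide, gave -0.21 and -0.29 in its 2 such clones in replicate 4 and 1.80 and 1.65 in replicate 5. LOC102577559 gave 0.34 in replicate 4 and 2.33 in replicate 5. LOC102577779 was high in both loops, at 2.04 and 3.61. These genes were chosen after their values were seen, and nothing was tested on them.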
